A study of Mus musculus with 3 samples.

Results

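The data were examined for 10 genes that specify or mark the primitive endoderm, out of 20660 genes that the arrays could name. The genes were chosen by symbol, as the transcription factor genes Gata6, Gata4, Sox17, Sox7, Foxa2 and Hnf4a, the receptor gene Pdgfra, the adaptor gene Dab2, the matrix gene Sparc and the secreted protein gene Afp. A probe belonged to a gene if its RefSeq accession mapped to that symbol, which gave 13 probes: 7 genes had 1 probe, and Sox17, Foxa2 and Sparc had 2 each. The cells were J1 mouse embryonic stem cells (mESCs), a line of strain 129S4/SvJae, kept on gelatin without a feeder layer in serum replacement medium that held 1000 U/mL of leukemia inhibitory factor (LIF). All 3 samples received 1 µM PD0325901 (PD), an inhibitor of the kinase MEK, for 24 h, and the methods describe them as independent experiments. They form 1 group of 3 replicates of 1 cell line, and untreated or vehicle-treated cells were not analysed here. No effect of PD on any gene was therefore tested, and every value below is a level in PD-treated cells with its spread between replicates.

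In the blastocyst, cells of the inner cell mass become either epiblast, the source of mESCs, or primitive endoderm, which later forms the visceral and the parietal endoderm of the yolk sac. Fibroblast growth factor (FGF) acting through MEK and ERK favours Gata6 and the primitive endoderm, whereas Nanog favours the epiblast. Gata6 is followed by Gata4, Sox17 and Sox7, and Pdgfra, Dab2 and matrix genes mark the cells as they form an epithelium.

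The arrays measured RNA in 1 colour, as the processed signal of each spot in arbitrary units. A gene was called detected if at least 50% of the spots of its brightest probe were flagged well above background on each of the 3 arrays. Its level is the log2 of the signal minus the 75th percentile of the array, so that 0 stands for that percentile. On replicates 1 to 3 the percentile was 551, 511 and 527 units, and the lowest signals flagged well above background were 10.1, 11.4 and 10.3. The 308 negative control spots had median signals of 2.42, 2.75 and 2.48, and 5, 16 and 4 of them were well above background. Signals of different probes depend on the probe sequence too, and levels are given gene by gene, not as an order of genes. In RNA from a whole culture, few cells with much of a transcript and many cells with little of it cannot be told apart.

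Of the 10 genes, 9 were detected on all 3 arrays, and the gene left over was Afp. Among all named genes the share was 72.7%. Of the 13 probes, 11 were detected on all arrays, the others being the probe of Afp and the dimmer probe of Foxa2. Of all non-control probes, 65.2%, 63.1% and 63.2% were detected on replicates 1 to 3, counted array by array. The 11 detected probes were all read at 2.61 times the lowest signal well above background of their array or more.

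**Figure D1:**
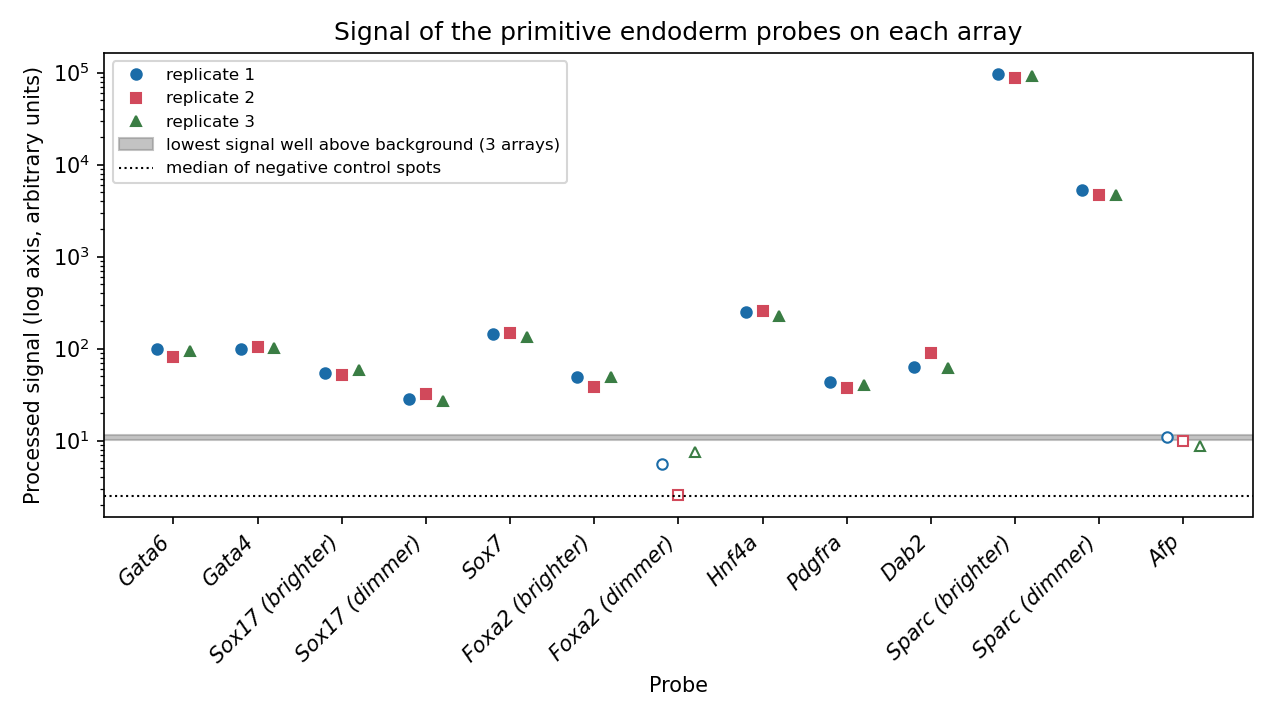
The processed signal of each probe is plotted on a log axis for replicates 1 to 3, with filled symbols where at least 50% of its spots were well above background. All probes lie above the grey band of the lowest signals well above background (10.1 to 11.4) except those of Afp and the dimmer probe of Foxa2, and heights of different probes are not comparable.

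Gata6 and Gata4 encode zinc finger factors that bind GATA sites, Gata6 being the earlier one in the primitive endoderm. Gata6 had signals of 100, 81.5 and 94.0 on replicates 1 to 3, a level of -2.53 ± 0.10 (SD, n = 3, here and below). Gata4 had signals of 98.1, 104 and 101, a level of -2.39 ± 0.10. Both were read by 1 probe with 1 spot per array, between 7.13 and 9.91 times the lowest signal well above background. Replicate 2 was the lowest array for Gata6 and the highest one for Gata4, and the highest signal after scaling was 1.14 times the lowest in each gene. On replicate 1 none of the 308 negative control spots reached either signal, and on replicates 2 and 3 only 1 did.

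Sox17 and Sox7 belong to the SoxF group of HMG box factors, and Sox17 acts in the endoderm downstream of Gata6. The brighter probe of Sox17 had signals of 54.6, 52.2 and 59.1, and its level was -3.26 ± 0.09. Its dimmer probe gave 28.7, 32.2 and 26.8, with a level of -4.18 ± 0.17. Of the 308 negative control spots, 0, 7 and 2 reached the brighter probe on replicates 1 to 3, and 2, 11 and 2 the dimmer one. Both probes were well above background on every array, but they ordered the replicates differently: replicate 3 was the highest by the brighter probe and the lowest by the dimmer one. Sox7 had signals of 146, 146 and 135 and a level of -1.89 ± 0.08, with replicate 3 the lowest after scaling. The differences between replicates in both genes thus stayed within a range of 0.31 log2 units, and for Sox17 they were not shared by its probes.

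Foxa2 and Hnf4a encode factors of the visceral endoderm that act later and also serve in the liver. The brighter probe of Foxa2 had signals of 49.7, 38.6 and 49.3, a level of -3.54 ± 0.16, with replicate 2 the lowest. On replicates 1 to 3, 0, 10 and 2 of the 308 negative control spots were at least as bright. The dimmer probe, which carries the same accession, had signals of 5.53, 2.56 and 7.58 and failed the background flag on all 3 arrays. On replicate 2, 208 of the 308 negative control spots were at least as bright as that probe, against 12 on replicate 1 and 5 on replicate 3. Detection of Foxa2 therefore rested on 1 of its 2 probes. Hnf4a had signals of 253, 253 and 228 and a level of -1.12 ± 0.10, at least 22.2 times the lowest signal well above background.

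RefSeq promoters of GRCm38.p6 were used for 6 of the 10 genes (Foxa2, Hnf4a, Pdgfra, Dab2, Sparc and Afp), with 10 transcription starts. The 250 bases before each start were searched on both strands. The search skipped 1 chromosome for the 10 genes, a rule not applied to all promoters. No promoter of Gata6, Gata4, Sox17 or Sox7 was searched, so the matches below do not cover these genes. The letters AGATAA, a common form of the GATA site, stood before 1 start of Foxa2 (bases -183 to -178 from it) and 1 start of Hnf4a (bases -52 to -47), and 9.99% of all 32851 promoters of this length held them. The letters ACAATG, a form of the SOX site, and TGTTTAC, a form of the site of FOXA factors, stood before none of the 10 starts, against 10.69% and 3.17% of all promoters. The promoter at 1 start of Hnf4a is shown as an example with a GATA match, and that of Afp because Afp was the gene not detected. The first sequence, which ends at the match, is chr2:163506607-163506810 on the plus strand, with AGATAA in capitals, and the second is chr5:90490464-90490713 on the plus strand, with TATAAA in capitals. TATAAA, the letters of the TATA box, stood at bases -7 to -2 of Afp. It also stood on the other strand at bases -208 to -203 of 1 start of Foxa2, and 12.4% of all promoters held it. A match is a run of letters and was not tested for binding.
Hnf4a: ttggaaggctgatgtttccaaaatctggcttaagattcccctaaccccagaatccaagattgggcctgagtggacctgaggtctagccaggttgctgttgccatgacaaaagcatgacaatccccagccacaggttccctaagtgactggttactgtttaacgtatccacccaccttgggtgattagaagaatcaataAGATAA
Afp: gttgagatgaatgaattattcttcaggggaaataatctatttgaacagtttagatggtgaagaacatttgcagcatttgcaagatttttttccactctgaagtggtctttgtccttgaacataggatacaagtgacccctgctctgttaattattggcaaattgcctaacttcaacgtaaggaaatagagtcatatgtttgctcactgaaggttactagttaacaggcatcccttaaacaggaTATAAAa

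Pdgfra, the receptor for platelet derived growth factor A, supports survival of primitive endoderm cells. Its probe was spotted 10 times on each array, and all 10 were well above background on each of the 3 arrays. Of the 308 negative control spots, 0, 10 and 2 were at least as bright as its mean on replicates 1 to 3. The Pdgfra spots ranged from 39.1 to 52.0 on replicate 1, from 31.9 to 44.9 on replicate 2 and from 30.9 to 49.8 on replicate 3, so the arrays overlapped widely. Over its spots the signal was 43.5 ± 3.76 (SD, 10 spots), 37.2 ± 3.71 and 40.5 ± 5.71 units. The level was -3.72 ± 0.06 over the 3 replicates. Replicate 2 lay below replicate 1 by 0.12 log2 units with a standard error of 0.06 from the spots, and the other pairs differed by less than their standard errors of 0.08. Spots of 1 array are technical repeats, so that error covers the array and not the culture.

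Dab2 encodes an endocytic adaptor that primitive endoderm cells need to line up as an epithelium. Its signals were 62.4, 89.5 and 61.5, and its level was -2.92 ± 0.35, the largest SD of the 9 detected genes. Replicate 2 stood above both others, by 0.63 and 0.58 log2 units, whereas replicates 1 and 3 differed by 0.04. Dab2 had 1 probe with 1 spot, which carried no outlier flag on any array and lay outside the 6 of 48 blocks of replicate 2 in which at least 10 spots were non-uniform. Whether the high value belongs to the culture or to the spot was not tested.

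Sparc encodes a matrix glycoprotein that parietal endoderm makes in quantity and that other adherent cells make too. Its brighter probe had signals of 96351, 88326 and 92036, a level of 7.44 ± 0.01. The dimmer probe had signals of 5283, 4642 and 4728, a level of 3.20 ± 0.05. Both probes were far above background, and the brighter one exceeded the dimmer one 18.2-, 19.0- and 19.5-fold on replicates 1 to 3. Under the other scalings and corrections the SD of Sparc lay between 0.006 and 0.058 log2 units. The size of the Sparc signal thus depended on the probe, but its spread between replicates was small by either.

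Afp encodes alpha-fetoprotein, which visceral endoderm secretes in abundance. Of its 10 spots per array, 3 were well above background on replicate 1, 3 on replicate 2 and 1 on replicate 3. Without the spots flagged as outliers the signals were 11.0, 9.83 and 8.68 units, and 5, 16 and 5 of the 308 negative control spots were at least as bright. Afp was therefore not well above background, although each of its spots was positive and significant by the looser flag of the scanner software and lay above the median negative control. The same spot was the brightest of the 10 on all 3 arrays, with 38.5, 40.3 and 13.3 units against at most 15.4, 14.7 and 10.5 in the others. The spot nearest to it on the slide had signals of 261170, 262584 and 236649, whereas those nearest to the other 9 Afp spots reached at most 23916, 23222 and 23179. A part of this neighbour in the bright spot was not tested. The software flagged the spot as an outlier on replicates 1 and 2 but not on replicate 3.

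**Figure D2:**
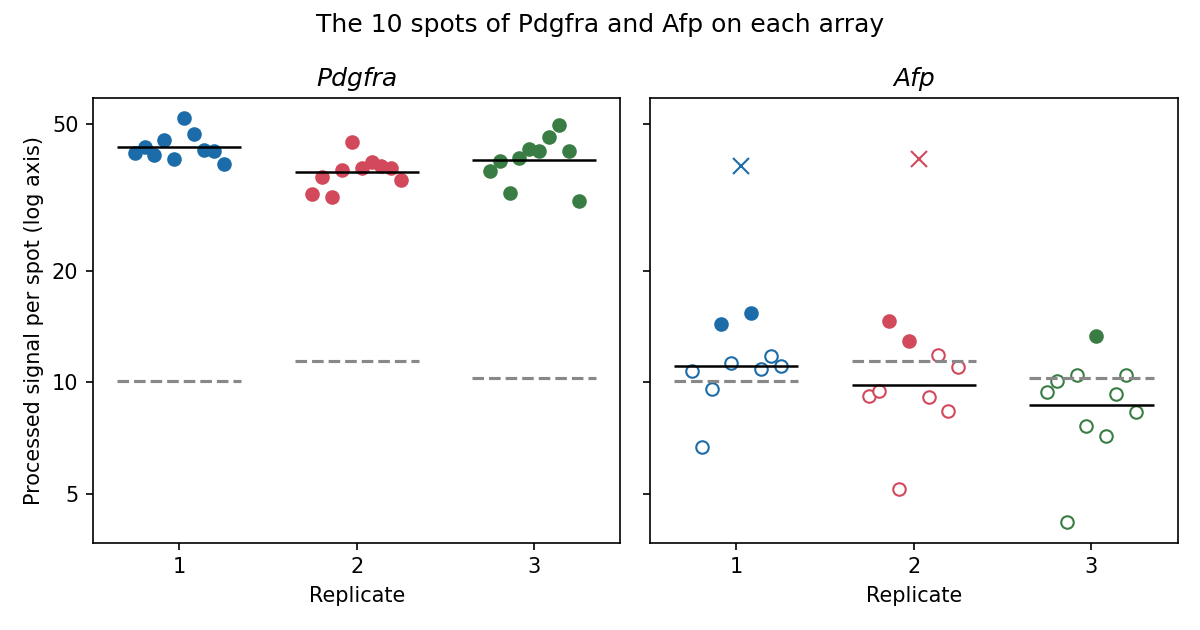
Each point is 1 spot of the probe of Pdgfra (left) or Afp (right) on replicates 1 to 3, by processed signal on a log axis; filled circles were flagged well above background, open circles were not, and crosses were left out as outliers. Black lines are the means on the log scale and dashed lines the lowest signal well above background of any probe on that array, which all Pdgfra spots exceed and the Afp spots straddle.

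The spread of the genes between replicates was then set beside that of all genes. The median SD of the 9 detected genes was 0.10 log2 units, from 0.01 for Sparc to 0.35 for Dab2, against 0.07 over 14999 detected genes. Without replicate 2 these medians were 0.04 and 0.05, without replicate 1 they were 0.11 and 0.07, and without replicate 3 0.08 and 0.07. SDs over fewer arrays are not directly comparable to those over 3. The SD falls with the signal: with all genes split by level into 4 groups of equal size, its median was 0.14 in the lowest group, which holds Gata6, Gata4, Sox17, Foxa2, Pdgfra and Dab2, and 0.08 in the next one, which holds Sox7 and Hnf4a. Of the 6 genes in the lowest group, Foxa2 and Dab2 exceeded its median, and both genes in the next group exceeded theirs. Sparc, in the highest group, lay below the median of 0.06 there. None of the 9 genes had a range over 1 log2 unit, as did 0.987% of all detected genes.

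**Figure D3:**
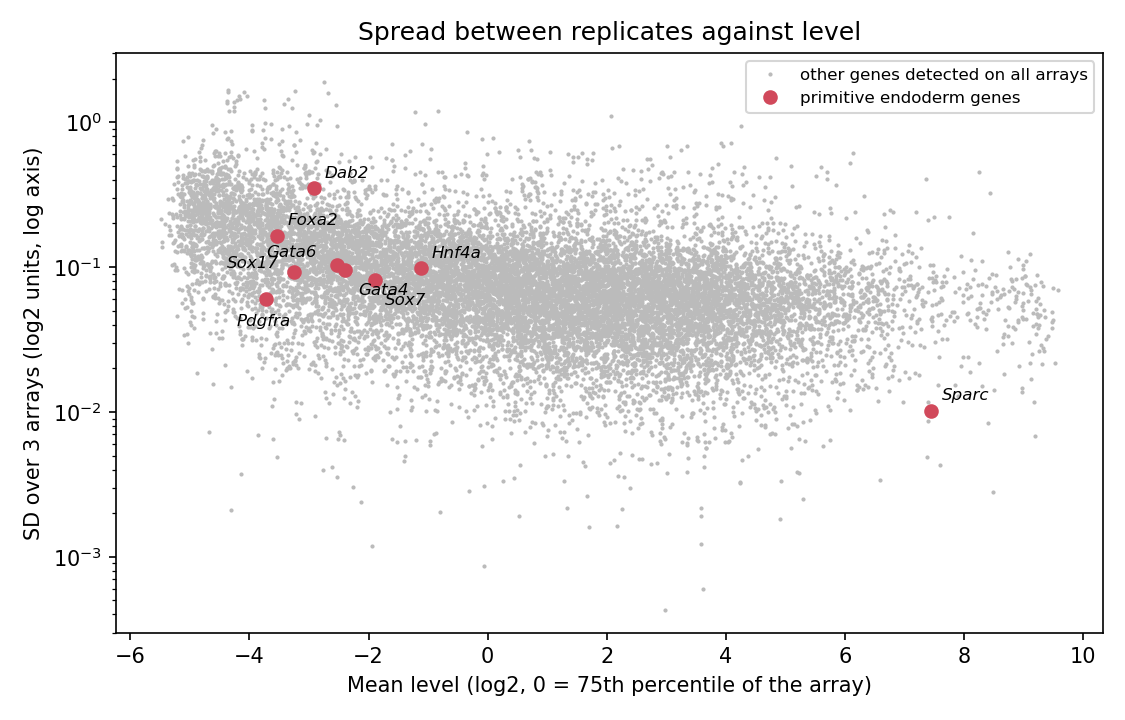
The SD of the level over 3 arrays (log axis) is plotted against the mean level for all 14999 genes detected on all arrays (grey) and the 9 detected primitive endoderm genes (red). The red points lie within the grey cloud, with Dab2 the highest of them at 0.35 and Sparc the lowest at 0.01.

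In 7 of the 9 genes, all but Gata4 and Sox17, replicate 2 deviated most from the middle value of the 3 arrays, and it did so in 42.8% of all detected genes. It was the highest array for Gata4, Sox7, Hnf4a and Dab2 and the lowest one for Gata6, Foxa2, Pdgfra and Sparc. The genes thus did not move together on replicate 2. With normexp background correction and the same scaling the count was 4 of 9, beside 40.6% of all detected genes. Of the 11 probes with 1 spot, none lay in the 6 blocks named above, whereas 3 of the Afp spots did.

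**Figure D4:**
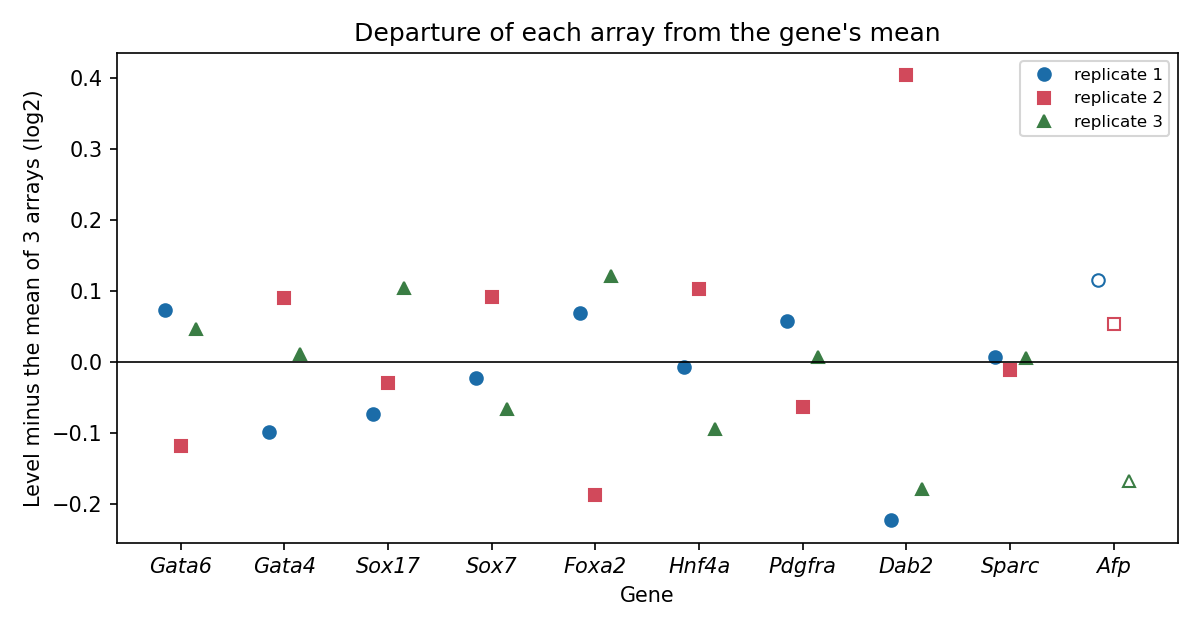
For each gene the level on replicates 1 to 3 is shown as its difference from the mean of the 3 arrays in log2 units, with open symbols for Afp, which was not detected. Replicate 2 of Dab2 stands farthest from the mean of its gene, 0.63 and 0.58 log2 units above the other arrays.

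The signals that induce the primitive endoderm and the partners of its proteins were described from lists of related genes. All 9 genes of the FGF and ERK route passed, from the ligand gene Fgf4 (level 6.30 ± 0.06) through the receptor genes Fgfr1 (4.03 ± 0.06) and Fgfr2 (-2.01 ± 0.10) to Mapk3 (2.75 ± 0.05), which encodes an ERK kinase. Among 8 partners of the 10 genes, Pdgfa, the ligand of Pdgfra, had a level of 4.76 ± 0.02, and Pdgfb one of -1.27 ± 0.09. Lrp2 (2.46 ± 0.05), Cubn (-1.12 ± 0.08) and Amn (-2.04 ± 0.17) encode the endocytic receptors that visceral endoderm uses for uptake, for which Dab2 is an adaptor. Zfpm1 (0.95 ± 0.03) and Zfpm2 (-4.70 ± 0.46) encode cofactors of GATA factors. Zfpm2 was at 14.7, 24.6 and 23.2 units, with replicate 1 the lowest. Zfpm2, Pdgfb and Cubn each had 1 of 2 probes detected. The other factors of extraembryonic endoderm were also detected, all 5 of them, among them Gata5 (0.76 ± 0.11), Hhex (0.66 ± 0.02), Sall4 (4.15 ± 0.03) and Foxa1 (-2.36 ± 0.11).

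Lists of genes that the later endoderm expresses were detected in part, and which cells made these transcripts was not tested. All 13 genes of parietal endoderm and basement membrane were detected, among them Lama1 (4.21 ± 0.03), Lamb1 (3.86 ± 0.51) and Lamc1 (5.46 ± 0.07), the chains of laminin, and Col4a1 (0.40 ± 0.07). Lamb1 was low on replicate 2, with 4939 units against 9463 and 9723. Plat and Thbd, which parietal endoderm expresses, were faint, at mean signals of 24.0 ± 3.51 and 23.4 ± 4.03. Of 9 visceral endoderm proteins 4 were detected (44.4%): Apom (-1.04 ± 0.07), Rbp4 (-0.58 ± 0.04), Trf (0.43 ± 0.05) and Ihh (-4.67 ± 0.26). Ttr, Apoa1, Apoa4, Apob and Fgb were not, and of these Ttr was well above background on 1 array, with 11.8, 12.0 and 2.31 units. With all 5 lists counted, 39 of 44 genes (88.6%) were detected, beside the 72.7% of all named genes.

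Markers of other cells that express some of the 10 genes were looked up as well. All 6 mESC genes were detected, among them Nanog (0.39 ± 0.05), Esrrb (6.28 ± 0.10), Sox2 (3.50 ± 0.23) and Pou5f1 (4.56 ± 0.42). Sparc and Pdgfra are also genes of fibroblasts, of whose 10 markers 6 were detected: Col1a1 (-1.23 ± 0.04), Col1a2 (-0.31 ± 0.23), Thy1 (0.24 ± 0.09), Dcn (-4.58 ± 0.15), Vim (5.61 ± 0.02) and Fn1 (6.67 ± 0.03). Col3a1, Col5a2, Lum and Postn were not detected, and Lum and Postn had mean signals of 2.38 ± 0.15 and 2.69 ± 0.18, at the level of the negative controls. Of 5 hepatocyte genes, Alb was not detected (2.83 ± 0.20 units). Ahsg (788 ± 2.12 units), Tat (133 ± 12.7 units), Serpina1a (26.5 ± 1.00 units) and G6pc (29.0 ± 9.79 units) were. Definitive and anterior endoderm, which also uses Sox17 and Foxa2, had 5 of 7 genes detected, Lefty1, Otx2, Gsc, Cxcr4 and Eomes, and not Mixl1 or Cer1. Cer1 was well above background on replicate 1 alone, with 35.2, 3.05 and 2.73 units. Of 6 trophoblast genes, Gata3, Tfap2c and Krt7 were detected and Cdx2, Elf5 and Hand1 were not. A part of other cell types in the signals of the 10 genes was not tested.

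**Figure D5:**
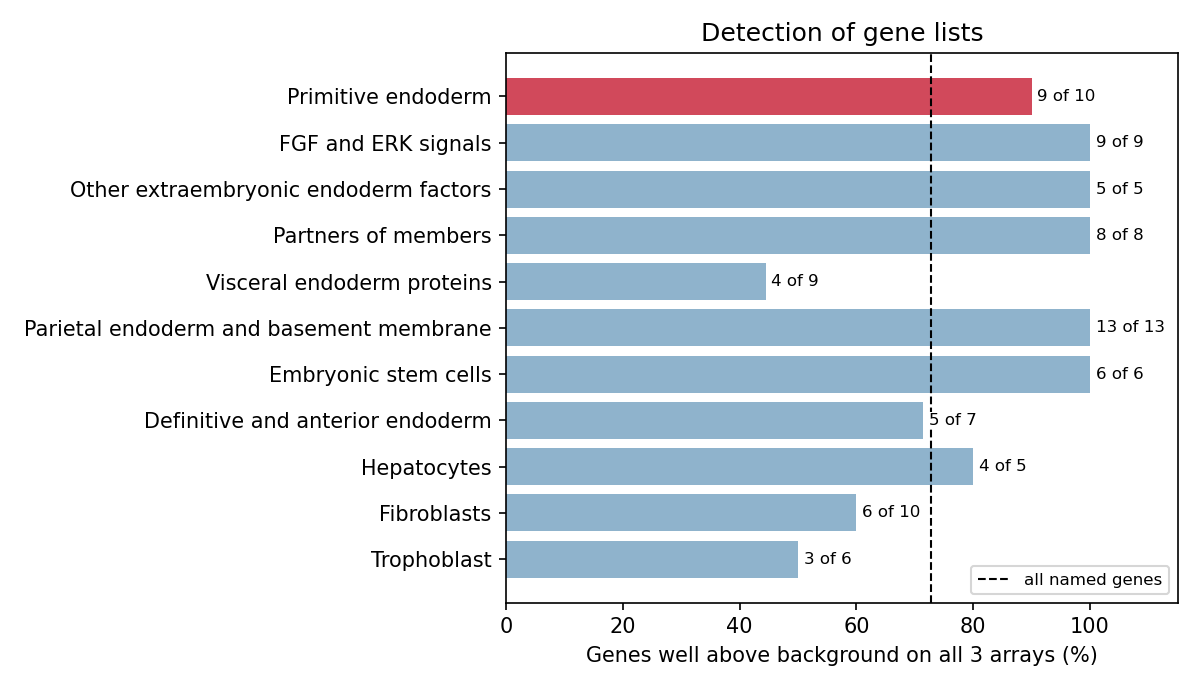
Bars give the percentage of genes on the array that were well above background on all 3 arrays, for the 10 primitive endoderm genes (red) and the other lists (blue), with the counts beside them. The dashed line marks the 72.7% of all named genes, and the primitive endoderm list lies above it with 9 of 10. Visceral endoderm proteins (4 of 9), trophoblast (3 of 6), fibroblasts (6 of 10) and definitive and anterior endoderm (5 of 7) fall below it. The other lists lie above it.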

How the data were processed

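Total RNA of 3 PD-treated cultures was labelled with Cy3 and hybridised to 1 Agilent mouse array each, on 1 slide. The deposited scanner files hold spot intensity, made by the authors with Agilent Feature Extraction 10.7.3.1 (10.7 in the submitters' processing notes). The software subtracted the background, removed trends within the array and set flags, other columns of each deposited file. The authors also deposited a log2 table whose normalization is not stated; its 3 columns had a median of 5.18 and a 75th percentile of 8.90 each, and correlated with the log2 signal at 0.99987 or more across probes.

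Probes were named through RefSeq accessions, without versions, in a GRCm38.p6 gene table. This matched 27235 of 55681 probes. The array's grid refers to mm9, so no probe or gene coordinates are given, and promoter coordinates are those of the RefSeq promoter table on GRCm38.p6. Log2 signals were averaged over spots without outlier flags and scaled to the 75th percentile of each array over non-control probes, in Python (numpy 2.4.6, pandas 2.3.3). No spot was saturated. With 1 group no test was made, and the number of arrays limits the precision. The computation of levels and SDs was tested on simulated data, in which most probes had the same SD at every level and no background floor was set. That setting cannot show how well SDs of faint probes are recovered. Alternatives covered scaling, background correction (normexp with an offset of 50 on spot medians, limma 3.58.1 in R 4.3.3), the deposited table, flags, probes, slide position and each replicate left out. All 10 genes and genes of the lists could be named; some genes counted in the lists are not reported here by name. The genes and lists were chosen with earlier results of these data known.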

Additional observations from a re-analysis of the deposited data

How the results depend on the processing

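No paired analysis was possible because the replicate numbers had no other group to be matched with. The count of 9 detected genes was 8 if every probe of a gene had to pass, since the dimmer probe of Foxa2 then failed, and 10 with the looser flag for positive and significant signals, which Afp passed, beside 68.0% and 81.1% of all named genes under these rules; it was 9 without replicate 1, 2 or 3. The 63 detected genes of the other lists ranged from 60 to 69 over these rules. The median SD of 0.10 log2 units lay between 0.066 and 0.10 under the other scalings and corrections and between 0.036 and 0.11 when 1 replicate was left out, being 0.036 without replicate 2. None of the genes had a range over 1 log2 unit under the alternatives run. Replicate 2 was farthest from the median in 7 genes, and in 6 or 7 under the other scalings and corrections. With normexp correction scaled to the 75th percentile it was so in 4, beside 40.6% of all detected genes. The cause was not tested. Levels moved by up to 3.74 log2 units with the median of each array as the reference, by up to 1.92 with the percentile over detected probes and by up to 1.19 with normexp correction, under which Pdgfra was at -2.53 and Foxa2 at -2.47, and averaging the detected probes lowered that of Sparc by 2.12, whereas quantile normalization moved the 9 levels by at most 0.01. Faint probes limit the precision: the brightest probes of the 8 detected genes other than Sparc were read at signals of 37.1 to 253 units.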
